A study of Mus musculus with 12 samples.

Results

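The RNA levels of 10 genes of the unfolded protein response (UPR) were followed in mouse bone marrow-derived dendritic cells (BMDCs): Hspa5, Hsp90b1, Calr, Dnajb9, Sdf2l1, Pdia4, Creld2, Herpud1, Edem1 and Xbp1. They were listed by name, out of 55335 gene identifiers in the deposited tables, and all 10 were among the 14357 genes abundant enough to be tested. The cells were grown from the marrow of C57BL/6 mice that carry CreER, a tamoxifen-dependent Cre recombinase made from the Rosa26 locus, and whose Ctcf gene was intact. The study used male and female mice of 8 to 12 weeks, cultured the marrow with GM-CSF for 6 days, changed the medium every 2 days, and selected CD11c-positive cells. Such cultures are a model of monocyte-derived dendritic cells and can hold macrophage-like cells too. There were 4 groups of 3 libraries each: untreated cells (WT), cells given lipopolysaccharide (LPS) at 100 ng/ml for 3 h (WTL), cells given JSH-23 at 100 µM (WT + JSH23), and cells given that JSH-23 3 h ahead of the same LPS (WTL + JSH23). LPS, a glycolipid of Gram-negative bacteria, activates cells through Toll-like receptors, and JSH-23 is a small molecule used to keep NF-κB (RelA) out of the nucleus. The study used 4-hydroxytamoxifen to delete Ctcf in its knockout cells. Whether the WT cultures were also given it is not plain from the sources used here. A solvent control for JSH-23 is not given in the sources used here. Replicates were numbered 4 to 6 without JSH-23 and 1 to 3 with it, so that JSH-23, its solvent and any separate round of culture cannot be told apart.

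The UPR is the programme by which cells match the folding capacity of the endoplasmic reticulum (ER) to the load of proteins made there. Its sensors in the ER membrane are IRE1 (gene Ern1), PERK (Eif2ak3) and ATF6: active IRE1 splices the Xbp1 mRNA so that it encodes a transcription factor, ATF6 is cut by Golgi proteases to release one, and PERK slows translation and favours the synthesis of ATF4. XBP1 and ATF6 raise chaperones, folding enzymes and parts of ER-associated degradation (ERAD), the route by which misfolded proteins leave the ER and are destroyed. Dendritic cells depend on this machinery for secretion and antigen presentation, and the IRE1-XBP1 branch is known for its activity in them at rest. The expected counts analysed here are summed per gene, so spliced and unspliced Xbp1 mRNA were not separated, and mRNA levels do not measure the activity of a sensor.

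The promoters of the 10 genes were read because the response acts through a known sequence, the ER stress response element (ERSE), bound by ATF6 together with NF-Y. Promoter windows of 300 bases, from 250 before to 50 after the RefSeq start of transcription (GRCm38.p6), were at hand for all 10 genes. Exact ERSE matches (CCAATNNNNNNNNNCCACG, both strands) were found in the windows of Hspa5, Hsp90b1, Creld2 and Calr, where Hsp90b1 held 2, against 0.119% of all 32851 windows. The related ERSE-II (ATTGGNCCACG, both strands) was found in Herpud1 and in 0.0365% of all windows. With at most 1 of the 10 fixed bases of ERSE different, Pdia4 and Herpud1 also had a match, as did 1.5% of all windows. TGACGTG, a binding sequence of XBP1 and ATF6, was found in Hspa5 and in 2.01% of windows. No 2 exact matches in a member overlapped. None of these letters occurred in the windows of Xbp1, Dnajb9, Sdf2l1 and Edem1, which says nothing of sequence outside the windows. The stretches below hold the exact matches and the inexact one of Pdia4, in capitals and read 5′ to 3′ on the strand of the gene. The inexact match of Herpud1 lies outside its stretch, and a further inexact match of Hsp90b1, between its exact ones, is left in lower case. They lie at chr2:34771913-34771959 (+) and chr2:34772020-34772048 (+) for Hspa5, chr10:86705513-86705676 (-) for Hsp90b1, chr8:84847055-84847113 (-) for Calr, chr15:88819500-88819558 (+) for Creld2, chr8:94386357-94386407 (+) for Herpud1 and chr6:47813582-47813640 (-) for Pdia4. All lie before the RefSeq start, and only the second stretch of Hspa5 lies past the GENCODE M21 start of its own gene. Exons of other genes were not compared with the stretches.
Hspa5, TGACGTG: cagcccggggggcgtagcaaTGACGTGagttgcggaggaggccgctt
Hspa5, ERSE: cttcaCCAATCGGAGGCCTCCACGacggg
Hsp90b1: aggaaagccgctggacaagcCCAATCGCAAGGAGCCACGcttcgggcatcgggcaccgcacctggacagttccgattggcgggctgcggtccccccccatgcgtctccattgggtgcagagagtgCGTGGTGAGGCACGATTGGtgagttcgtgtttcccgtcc
Calr: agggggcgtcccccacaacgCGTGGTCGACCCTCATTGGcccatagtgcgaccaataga
Creld2: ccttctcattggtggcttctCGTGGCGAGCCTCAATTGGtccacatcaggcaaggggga
Herpud1: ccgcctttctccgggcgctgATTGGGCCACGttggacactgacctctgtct
Pdia4: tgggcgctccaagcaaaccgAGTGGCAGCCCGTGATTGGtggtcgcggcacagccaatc

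Totals ran from 24664724 to 34837847 expected counts per library, and the 10 genes together held 0.252% to 0.300% of them. The least abundant, Creld2, had at least 499 counts in every library. Replicates of a group differed by more than counting noise, so none was a repeat of another, and WTL + JSH23 replicate 3 stood farthest from its group (chi-square per degree of freedom 8.23 and 9.16, against 2.33 to 4.52 for the other pairs). Markers of dendritic cells summed to between 14380 and 18460 CPM (counts scaled to the size of the library) per library, with 8 of 9 tested. Macrophage markers summed to between 2010 and 3112 CPM, neutrophil markers to between 41.5 and 62.9 CPM, and T cell markers to at most 1.27 CPM. Stromal markers summed to between 1.12 and 28.3 CPM, almost all of it Pdgfrb.

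Levels of different genes were compared per transcript length, as TPM (transcript abundance corrected for length and library size). Hspa5, Calr and Hsp90b1, the chaperones of the ER lumen, led in every group. In WT their TPM were 629 ± 11.9, 592 ± 0.998 and 369 ± 5.91 (SD, n = 3), and no library of one reached the next. In WT + JSH23 the order of the first pair was turned, with Calr at 588.8 ± 14.6 TPM and Hspa5 at 540.1 ± 29.6 TPM, again without overlap. Xbp1 and Edem1 followed at 120.7 ± 2.07 and 118.6 ± 4.93 TPM in WT, where their ranges overlapped. At the low end stood Creld2 and Dnajb9 in WT, at 29.4 ± 1.87 and 28.2 ± 0.612 TPM with overlapping ranges, and Dnajb9 and Pdia4 in WTL, at 27.6 ± 0.98 and 24.9 ± 2.34 TPM, also overlapping.

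The response to LPS was mixed among the 10 genes. In WTL against WT, 6 of them were higher (Hspa5, Creld2, Dnajb9, Hsp90b1, Calr and Edem1), 3 were lower (Pdia4, Xbp1 and Sdf2l1), and Herpud1 did not pass an adjusted p of 0.05 in the quasi-likelihood test of edgeR. Of all genes tested, 31.0% were higher and 34.7% were lower in that comparison. The median log2 fold change was 0.15 for the 10 genes and -0.05 for all genes. None of the 10 changed by more than 2-fold with an adjusted p under 0.05 in any comparison, while 16.4% of all genes did so here. Marker sums differed too: the neutrophil list was at 43.7 to 49.2 CPM in WT and 61.9 to 62.9 CPM in WTL, and the dendritic cell list at 15000 to 15250 and 17420 to 18460 CPM. Macrophage markers summed to 2540 to 2704 CPM in WT and 3045 to 3112 CPM in WTL. That list was mixed, with 3 of its 8 genes called higher and 4 lower (median log2 fold change -0.10). Stromal markers were at 2.13 to 3.11 CPM in WT and 27.1 to 28.3 CPM in WTL, almost all of it Pdgfrb, and only 1 of the 5 was tested. Col3a1 was at 0 in both groups and Col1a2 at 0 in WTL. The part of these cell types in the LPS changes was not tested. Because the libraries are bulk RNA, fewer cells with a transcript and less of it per cell cannot be told apart.

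After JSH-23 the same dose of LPS left 2 of the 10 genes higher, Hspa5 and Dnajb9, and 4 lower, Xbp1, Pdia4, Sdf2l1 and Creld2. The shares of all genes were 27.4% higher and 27.1% lower, and the medians were -0.05 for the 10 genes and -0.02 for all genes. The difference between the LPS changes was tested as an interaction, the LPS change with JSH-23 minus that without it. It was negative and passed for 6 of the 10 genes (Creld2, Hspa5, Xbp1, Hsp90b1, Edem1 and Calr), against 8.44% of all genes with a negative and 9.54% with a positive interaction that passed. None of the 10 had a positive interaction at an unadjusted p under 0.05 in edgeR or at an adjusted one in DESeq2. The median interaction was -0.20 for the 10 genes and 0.03 for all genes.

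The groups with JSH-23 were compared with those without it at each LPS state. Under LPS, 9 of the 10 genes were lower with JSH-23, all but Pdia4, against 24.2% of all genes lower and 24.5% higher, and the medians were -0.23 for the 10 genes and 0.02 for all genes. None was higher in edgeR, also at an unadjusted p under 0.05, or in DESeq2. In untreated cells the picture was less uniform: 4 were lower with JSH-23 (Herpud1, Sdf2l1, Hspa5 and Dnajb9), 1 was higher (Creld2) and 5 did not pass, against 22.1% of all genes lower and 18.8% higher. There the medians were 0.00 for the 10 genes and -0.01 for all genes. These comparisons share their WT and WTL libraries with those of LPS, so the counts are not independent of one another. The plot of changes sets the 5 comparisons beside each other.

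**Figure D1:**
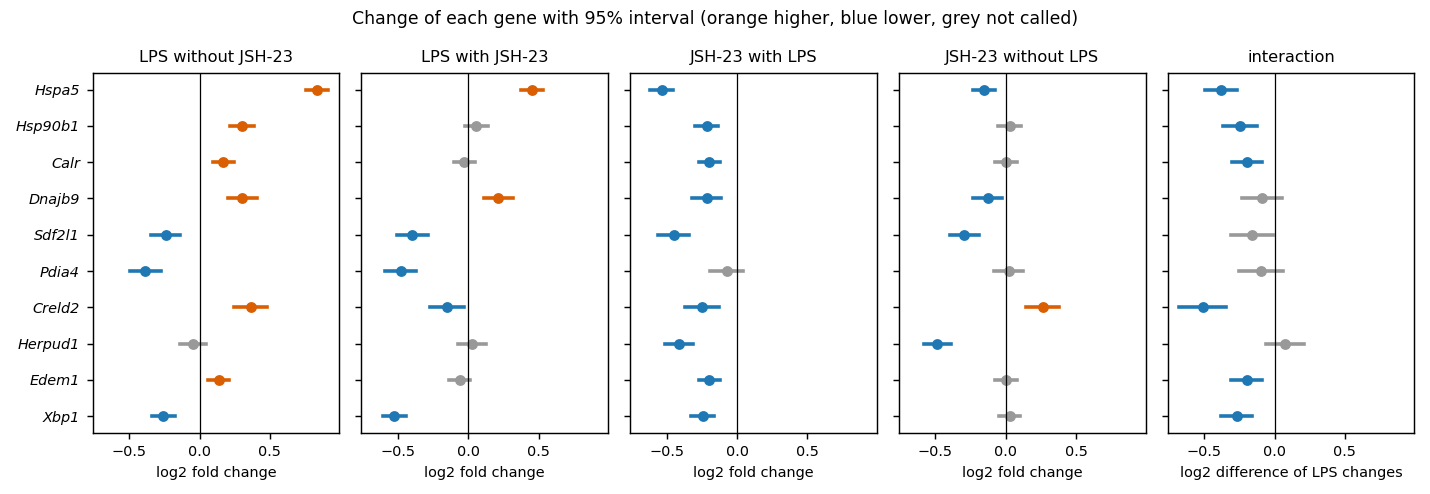
Log2 fold change (x axis) of each of the 10 genes (rows) in the 4 comparisons of groups, and the interaction, with points for the edgeR estimate and bars for its 95% interval. Orange marks genes called higher, blue genes called lower and grey genes not called at an adjusted p of 0.05; under LPS all 10 estimates for JSH-23 lie left of 0, from -0.54 for Hspa5 to -0.07 for Pdia4.

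Which libraries carry these changes is shown for each gene in turn, by role, starting with the chaperones of the lumen. Hspa5 (ENSMUSG00000026864.13, chromosome 2, 34771970 to 34777547 in GRCm38) encodes BiP, the main Hsp70 chaperone of the ER, which also holds the sensors inactive. It was at 738, 762 and 719.8 CPM in WT replicates 4 to 6, at 1328.5, 1349.9 and 1282 CPM in WTL replicates 4 to 6, at 691, 634 and 669 CPM in WT + JSH23 replicates 1 to 3, and at 919, 899 and 914 CPM in WTL + JSH23 replicates 1 to 3. No 2 of the 4 groups overlapped, and every WTL library stood far above every other. LPS raised Hspa5 by 0.83 on the log2 scale (SE 0.0379, adjusted p = 3.12e-14) without JSH-23 and by 0.45 (SE 0.0379, adjusted p = 1.44e-09) with it. The second rise was smaller by 0.38 on the log2 scale (SE 0.0534, adjusted p = 4.10e-05). With JSH-23 it fell by 0.54 under LPS and by 0.16 in untreated cells (adjusted p = 1.34e-10 and 0.00205).

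Hsp90b1 (ENSMUSG00000020048.13, chromosome 10, 86690209 to 86705509) encodes GRP94, the Hsp90 of the ER and a chaperone of Toll-like receptors and integrins. It was at 566, 582 and 556 CPM in WT, at 711, 700.5 and 688 CPM in WTL, at 611, 558 and 567 CPM in WT + JSH23 and at 628, 600.03 and 579 CPM in WTL + JSH23, with replicates in ascending order of number. The WTL libraries stood above all others, and the other 3 groups overlapped. LPS raised it by 0.30 on the log2 scale (SE 0.0404, adjusted p = 1.18e-06) without JSH-23, while the estimate with JSH-23 was 0.06 (95% interval -0.03 to 0.14, adjusted p = 0.242). The interaction was -0.24 (SE 0.0571, adjusted p = 0.00493). RSEM gave Hsp90b1 a fractional count in 11 of 12 libraries, so some of its read pairs were shared with another gene, and it overlaps the pseudogene 1810014B01Rik on the other strand.

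Calr (ENSMUSG00000003814.8, chromosome 8, 84841850 to 84846934) encodes calreticulin, a calcium-binding lectin chaperone that takes part in loading MHC class I. Its CPM were 643, 654 and 641 in WT, 712, 739 and 729 in WTL, 657, 625 and 656 in WT + JSH23, and 661, 625 and 616 in WTL + JSH23. In these CPM, as for Hsp90b1, WTL alone stood apart and the other 3 groups overlapped. In the deposited TPM, Calr was lower in WTL (508.8 to 540.4) than in WT (591.6 to 593.5), without overlap. The LPS change was 0.17 (SE 0.0363, adjusted p = 0.000335) without and -0.03 (adjusted p = 0.539) with JSH-23, and the interaction was -0.20 (SE 0.0514, adjusted p = 0.0102).

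**Figure D2:**
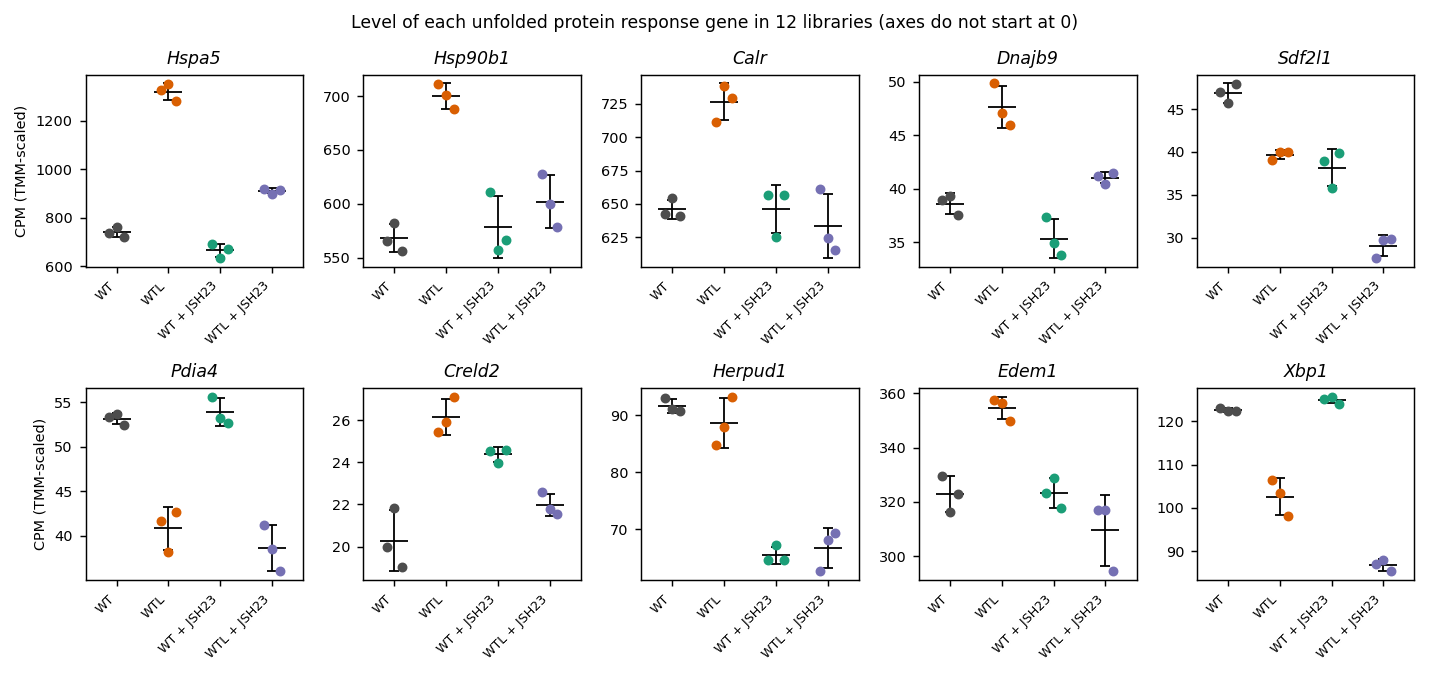
TMM-scaled CPM (y axis, a separate scale for each gene that does not start at 0) of the 10 genes in the 4 groups (x axis), with a coloured point for each of 3 libraries and a black bar and whiskers for mean and SD. Hspa5, Hsp90b1, Calr, Dnajb9, Creld2 and Edem1 have their highest libraries in WTL. Xbp1 and Pdia4 are lower in both LPS groups, and Herpud1 is lower in both JSH-23 groups.

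The cochaperones and folding enzymes did not move alike. Dnajb9 (ENSMUSG00000014905.4, chromosome 12, 44205559 to 44210326) encodes ERdj4, a J-domain partner of BiP. It was at 38.96, 39.3 and 37.5 CPM in WT, at 49.9, 47.1 and 45.99 CPM in WTL, at 37.3, 34.9 and 33.8 CPM in WT + JSH23 and at 41.2, 40.5 and 41.4 CPM in WTL + JSH23. None of the 4 groups overlapped, and their order was that of Hspa5. LPS raised Dnajb9 by 0.30 on the log2 scale (SE 0.0484, adjusted p = 1.17e-05) without and 0.21 (SE 0.0498, adjusted p = 0.00101) with JSH-23, and the interaction did not pass (-0.09, 95% interval -0.23 to 0.06). In untreated cells Dnajb9 was lower with JSH-23 by 0.13, with an adjusted p of 0.0433 in edgeR. That call was lost in 6 of the 12 fits without 1 library, namely WTL + JSH23 replicate 1, WT + JSH23 replicate 2 or 3, WTL replicate 5, and WT replicate 4 or 5, where the estimates ran from -0.13 to -0.10. It was also lost in DESeq2 (adjusted p = 0.0807).

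Sdf2l1 (ENSMUSG00000022769.9, chromosome 16, 17130138 to 17132383) encodes an ER protein that works with J-domain cochaperones in the BiP cycle. It had 46.9, 45.7 and 47.98 CPM in WT, 39.1, 40.03 and 39.96 CPM in WTL, 38.9, 35.8 and 39.9 CPM in WT + JSH23 and 27.6, 29.7 and 29.9 CPM in WTL + JSH23. The WT libraries were the highest and the WTL + JSH23 libraries the lowest, while WTL and WT + JSH23 overlapped in between. The falls were 0.24 with LPS, 0.29 with JSH-23, and 0.45 with JSH-23 under LPS (adjusted p = 0.00021, 3.90e-05 and 2.94e-07 in edgeR). After JSH-23, LPS lowered it by 0.40 (adjusted p = 1.32e-06), and the interaction did not pass (-0.16, 95% interval -0.31 to -0.01, adjusted p = 0.139).

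Pdia4 (ENSMUSG00000025823.9, chromosome 6, 47796141 to 47813430) encodes a protein disulfide isomerase, which forms and rearranges disulfide bonds. It was at 53.3, 53.7 and 52.5 CPM in WT and at 55.7, 53.2 and 52.7 CPM in WT + JSH23, against 41.6, 38.1 and 42.7 CPM in WTL and 41.2, 38.6 and 36.04 CPM in WTL + JSH23. The groups split by LPS alone: each LPS group overlapped the other and lay below both untreated groups. LPS lowered Pdia4 by 0.38 (SE 0.0526, adjusted p = 1.55e-06) without and 0.48 (SE 0.0531, adjusted p = 1.24e-07) with JSH-23. Its change with JSH-23 was -0.07 (95% interval -0.19 to 0.04) under LPS and 0.02 (95% interval -0.09 to 0.12) without, and neither passed.

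Creld2 (ENSMUSG00000023272.4, chromosome 15, 88819646 to 88826683) encodes a secreted ER protein with disulfide isomerase activity. Its CPM were 19.97, 21.9 and 19.01 in WT, 25.5, 25.9 and 27.1 in WTL, 24.6, 23.98 and 24.6 in WT + JSH23, and 22.6, 21.8 and 21.6 in WTL + JSH23. WTL was highest and WT lowest, with only WTL + JSH23 and WT overlapping. LPS raised Creld2 by 0.36 (SE 0.0569, adjusted p = 9.49e-06) in cells without JSH-23. With JSH-23 the LPS change was -0.15 (SE 0.0574, adjusted p = 0.0337), a fall that no longer passed in the fits without WTL + JSH23 replicate 2 or 3 or WT + JSH23 replicate 1 or 3 (adjusted p = 0.0782 to 0.0805), or in DESeq2 (adjusted p = 0.104). The interaction, -0.51 (SE 0.0808, adjusted p = 0.000144), was the largest in size of the 10. Creld2 was also the single gene of the 10 that was called higher with JSH-23 in untreated cells, by 0.26 (SE 0.0563, adjusted p = 0.000657).

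The degradation genes differed from each other. Herpud1 (ENSMUSG00000031770.16, chromosome 8, 94386438 to 94395377) encodes an ER membrane protein that organises the ERAD ubiquitin ligase complex. Its CPM were 92.996, 91.2 and 90.8 in WT, 84.7, 88.1 and 93.3 in WTL, 64.6, 67.2 and 64.6 in WT + JSH23, and 62.7, 68.1 and 69.4 in WTL + JSH23. The groups split by JSH-23 alone, and the 2 groups at each JSH-23 state overlapped. Herpud1 was lower with JSH-23 by 0.49 (SE 0.0455, adjusted p = 1.50e-08) in untreated cells and by 0.41 (SE 0.0466, adjusted p = 2.00e-07) under LPS. The LPS changes were -0.05 (95% interval -0.14 to 0.05) without and 0.03 (95% interval -0.07 to 0.12) with JSH-23, and neither passed. Other scalings called LPS falls of Herpud1: without JSH-23 under upper quartile scaling (-0.13, adjusted p = 0.0142) and in unscaled TPM (-0.41), and with JSH-23 in unscaled TPM (-0.23, adjusted p = 0.00381). Unlike the other 9 genes, its interaction was positive in estimate (0.07, adjusted p = 0.483). The antisense gene Gm15890 overlaps Herpud1, and whether reads were counted by strand is not given in the sources used here.

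Edem1 (ENSMUSG00000030104.9, chromosome 6, 108828641 to 108859356) encodes a mannosidase-like protein that marks misfolded glycoproteins for ERAD. It had 329.6, 316 and 323 CPM in WT, 357.6, 357 and 349.9 CPM in WTL, 323, 329 and 318 CPM in WT + JSH23 and 317, 317 and 294 CPM in WTL + JSH23. In these CPM WTL lay above the other 3 groups, and WTL + JSH23 replicate 3 below all others. In the deposited TPM, Edem1 was lower in WTL (98.54 to 103.9) than in WT (114.1 to 123.9), without overlap. The LPS change was 0.14 (SE 0.0368, adjusted p = 0.00281) without and -0.06 (SE 0.0369, adjusted p = 0.162) with JSH-23, with an interaction of -0.20 (SE 0.0521, adjusted p = 0.0111).

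Xbp1 (ENSMUSG00000020484.19, chromosome 11, 5520659 to 5525893), the transcription factor gene, was at 123, 122 and 122 CPM in WT, at 106, 103 and 98.0 CPM in WTL, at 125, 126 and 124 CPM in WT + JSH23 and at 86.995, 87.98 and 85.3 CPM in WTL + JSH23. No groups overlapped, and the WTL + JSH23 libraries were the lowest. LPS lowered Xbp1 by 0.26 (SE 0.0378, adjusted p = 4.31e-06) without and by 0.53 (SE 0.0383, adjusted p = 1.59e-10) with JSH-23, an interaction of -0.27 (SE 0.0538, adjusted p = 0.00136). Under LPS Xbp1 was lower with JSH-23 by 0.24 (adjusted p = 2.19e-05). In untreated cells its change with JSH-23 was 0.03 (95% interval -0.05 to 0.10, adjusted p = 0.612). Thus for Xbp1 the LPS fall was larger with JSH-23, whereas for Hspa5 the LPS rise was smaller with it. Plasma cells are rich in Xbp1, and the summed markers of B and plasma cells were lower with LPS too, from 208 to 217.8 CPM in WT and from 129.3 to 134.8 CPM in WTL. Most of that sum was Sdc1, at 206 CPM in WT and 127.4 CPM in WTL in the means. Ighm was at 3.92 and 2.79 CPM, and both genes were called lower. Of the 4 genes of the list that were tested, the other 2 had positive estimates that did not pass. Igkc was at 1.23 CPM or less in the mean of every group, and Cd79a, Pax5 and Mzb1 at 0.209 CPM or less. The part of such cells in the fall of Xbp1 was not tested.

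How far the LPS changes rest on the scaling of the libraries was examined, since TMM factors were 0.859 to 0.880 in WTL and 1.08 to 1.09 in WT. In the deposited TPM without rescaling, the median of all genes moved to -0.26 for LPS without JSH-23 and to -0.16 with it, and under upper quartile scaling to -0.13 and -0.10. Of all genes called, 1911 were higher and 7802 lower with LPS in unscaled TPM, against 4451 and 4986 with TMM. With upper quartile scaling 3749 were higher and 5832 lower without JSH-23, and 3085 and 5090 with it. For JSH-23 under LPS unscaled TPM gave 4242 higher and 1967 lower, and for LPS with JSH-23 1977 and 5947. With TPM, Hspa5 remained higher with LPS (log2 fold change 0.47), Calr, Edem1 and Herpud1 passed as lower (-0.18, -0.23 and -0.41), and Creld2 (0.03), Hsp90b1 (-0.03) and Dnajb9 (-0.03) did not pass. The LPS rise of Edem1 also failed under upper quartile scaling (0.05, adjusted p = 0.215) and in TMM-scaled TPM (0.09, adjusted p = 0.14). After JSH-23, LPS falls were called in unscaled TPM for Hsp90b1 (-0.16), Edem1 (-0.28) and Calr (-0.24), and under upper quartile scaling for Edem1 (-0.15) and Calr (-0.11). Relative to the median of all genes, the same 6 genes were above it and the other 4 below it with TMM and with TPM alike. On that relative scale Hspa5 was at 0.88 with TMM and 0.73 with TPM, Calr at 0.22 and 0.085, Edem1 at 0.18 and 0.03, and Xbp1 at -0.21 and -0.32. The falls with JSH-23 under LPS held for all 10 estimates relative to the median under each scaling, but unscaled TPM left 4 of the 9 calls (Hspa5, Xbp1, Herpud1 and Sdf2l1) and 1 of the 6 interactions (Creld2).

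**Figure D3:**
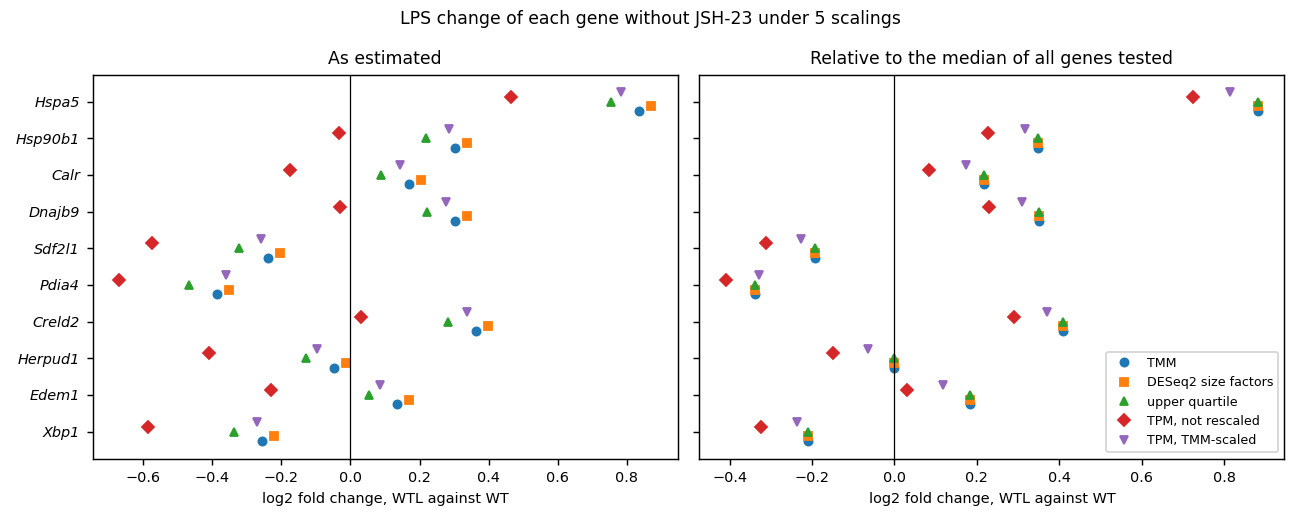
Log2 fold change of each of the 10 genes in WTL against WT (x axis) under 5 scalings (symbols), as estimated (left) and after subtracting the median of all 14357 genes tested (right). Values of unscaled TPM are shifted left in the left panel, where its median of all genes was -0.26; in the right panel Hspa5, Hsp90b1, Calr, Dnajb9, Creld2 and Edem1 lie right of 0 in all 5.

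A ratio of 2 genes within a library does not depend on its scaling. The log2 ratio of Hspa5 to Xbp1 was 2.59 ± 0.043 in WT and 3.69 ± 0.038 in WTL (SD, n = 3), and 2.41 ± 0.067 and 3.39 ± 0.035 in WT + JSH23 and WTL + JSH23. All LPS libraries, from 3.35 to 3.71, lay above all untreated ones, from 2.34 to 2.64. Hspa5 to Hsp90b1 rose likewise, from 0.38 ± 0.009 in WT to 0.92 ± 0.027 in WTL, so that the 2 chaperones were changed to unequal degrees. Hsp90b1 to Pdia4, at 3.42 ± 0.018 in WT and 4.10 ± 0.096 in WTL, also separated the LPS states.

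Across the 12 libraries, the 10 genes did not form 1 pattern. Pearson r of log2 CPM ran from -0.76 between Hspa5 and Pdia4 to 0.97 between Hspa5 and Dnajb9, with a median of 0.40 over 45 pairs and 16 pairs below 0. Hspa5, Dnajb9, Hsp90b1, Calr, Edem1 and Creld2 were positively correlated with each other (0.40 to 0.97), as were Xbp1, Pdia4 and Sdf2l1 (0.65 to 0.92). Herpud1 was most like Sdf2l1 (0.74). These values describe 4 groups of libraries with common treatments and a common scaling, so the points are not independent.

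**Figure D4:**
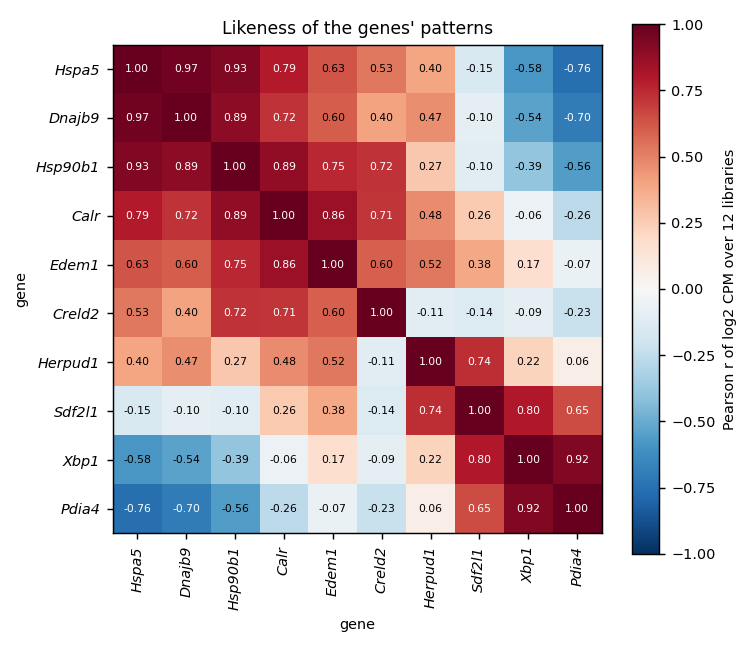
Pearson r (colour, printed in each cell) between the log2 CPM of each pair of the 10 genes (rows and columns) over the 12 libraries. The block of 6 genes at the upper left holds positive values only, from 0.40 upwards, and the last 3 genes form a second positive block, with values down to -0.76 between the blocks.

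The mean standardised log2 CPM of the 10 genes was highest in WTL (0.84 to 0.87) and lowest in WTL + JSH23 (-0.88 to -0.52). The genes followed this mean to unequal degrees, with Pearson r from 0.01 for Pdia4 and 0.25 for Xbp1 to 0.91 for Calr and 0.92 for Edem1. Of 7688 other protein-coding genes with a mean of at least 10 CPM, the 10 most like this mean over the 12 libraries were Tsku, Nde1, Ccdc25, Pdia3, Atp5g3, Fdps, Resf1, Chil3, Morc3 and Rnf139 (Pearson r 0.93 to 0.95). Only Pdia3, a disulfide isomerase that works with calreticulin, was on the pathway lists. Its means were 359.6 CPM in WT, 398 CPM in WTL, 344 CPM in WT + JSH23 and 331 CPM in WTL + JSH23.

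The other genes of the pathway were counted from lists by function. Of the 8 genes for sensors, transcription factors and their activating proteases, LPS without JSH-23 lowered 5 and raised 1, with a median of -0.40 against -0.05 for all genes. Eif2ak3, which encodes PERK, fell from 24.96 ± 1.08 to 10.9 ± 0.615 CPM (log2 fold change -1.19), Ern1 from 48.1 ± 1.13 to 30.7 ± 1.32 CPM (-0.65) and Atf6 from 55.5 ± 2.87 to 36.9 ± 1.82 CPM (-0.59). Creb3l2 (-0.58) and the protease gene Mbtps1 (-0.22) were lower and Atf6b (0.21) was higher, while the protease gene Mbtps2 (-0.12) and Creb3 (0.00) did not pass. With JSH-23 under LPS 4 of the 8 were higher and the other 4 did not pass. The 4 were Ern1 (0.52), Eif2ak3 (0.28), Mbtps2 (0.22) and Atf6 (0.20). The interaction passed for Atf6 (0.44) and Ern1 (0.39), both positive, in contrast to the 6 negative ones above.

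Among 20 other ER chaperones, cochaperones and folding enzymes, LPS without JSH-23 raised 11 and lowered 5 (median 0.14). The J-protein gene Dnajc1 (0.83) and Manf (0.55), which encodes a secreted ER stress protein, rose most, and the oxidase gene Ero1b (-0.67) and the disulfide isomerase gene Txndc5 (-0.35) fell most. With JSH-23 under LPS 8 of the 20 were lower and 2 higher (median -0.07), led by falls of Dnajb11 (-0.47), another J-domain partner of BiP, and Manf (-0.40). The interaction passed for 6 negative and 1 positive, led by Manf (-0.48). ERSE or ERSE-II was found in the promoter windows of Dnajb11, Dnajc3, Canx, Pdia6 and Ero1b, out of 17 of these genes with a window. The share over all windows was 0.155%. Of 13 other ERAD genes with a window, Syvn1 and Derl3 had a match, and no gene of the remaining lists by function had any.

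Of 16 other ERAD genes tested, LPS raised 8 and the other 8 did not pass, with the largest rises in Sel1l (0.75), the adaptor of the ERAD ligase, and Ube2j1 (0.72), an ER ubiquitin-conjugating enzyme. With JSH-23 under LPS 6 were higher, led by Herpud2 (0.38) and Edem2 (0.33), and 3 lower, led by the ligase gene Syvn1 (-0.39). The relatives Herpud2 and Edem2 were thus higher with JSH-23 where Herpud1 and Edem1 were lower. Of 19 genes for ER translocation and vesicle transport, LPS raised 9 and lowered 1 (median 0.13), and with JSH-23 under LPS 2 were higher and 5 lower, from the coat gene Sec24d (0.74) to the translocon gene Sec61b (-0.48). A short list of substrates of IRE1-dependent mRNA decay held 3 genes, which are not all that are known. Of these, LPS raised Bloc1s1 (0.17) and lowered Scara3 (-0.75), and with JSH-23 under LPS Hgsnat was higher (0.92) and Bloc1s1 lower (-0.27).

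The PERK-ATF4-CHOP list was counted next. Of its 10 genes, 8 were higher and 2 lower with JSH-23 under LPS (median 0.82), and 9 were higher without LPS while Ppp1r15b did not pass (median 0.46). Under LPS Trib3, a pseudokinase gene induced by ATF4 and CHOP, was at 0.522 ± 0.13 CPM without and 12.5 ± 3.89 CPM with JSH-23 (log2 fold change 4.58), and Chac1, a glutathione-degrading enzyme gene, at 0.613 ± 0.214 and 9.35 ± 2.48 CPM (3.95). In untreated cells, among those with a mean of at least 5 CPM, Trib3 rose by 3.27 and the asparagine synthetase gene Asns by 2.56. LPS itself raised Ppp1r15a (1.53), whose product reverses the translation block of PERK, and lowered Atf3 (-0.79). Part of this list overlaps the integrated stress response, which other kinases can also start. A list of 12 heat shock genes was mainly cytosolic but held the mitochondrial chaperonin genes Hspd1 and Hspe1. Of the 12, 11 rose with JSH-23 under LPS and 11 without it, and 1 did not pass in each (medians 0.41 and 0.50). Among those with a mean of at least 5 CPM the largest rises were those of Hsph1 (1.14) and Hspa1a (0.94) under LPS and of Hspa1a (1.38) and Hspa1b (1.202) without.

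**Figure D5:**
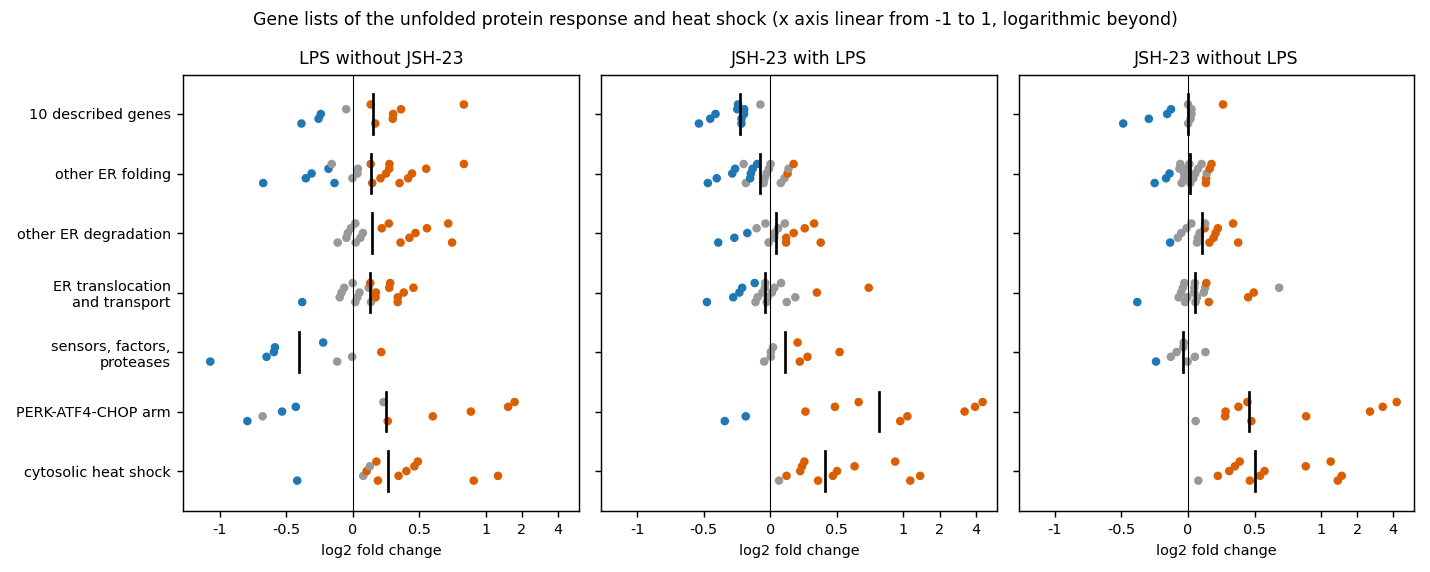
Log2 fold change (x axis, linear between -1 and 1 and logarithmic beyond) of the genes of 7 lists (rows) in 3 comparisons, with a point for each gene tested, coloured orange for higher, blue for lower and grey for not called at an adjusted p of 0.05, and a black bar at the median. With JSH-23 under LPS the 10 described genes have a median of -0.23, the PERK-ATF4-CHOP arm 0.82 and the heat shock genes 0.41. The row labelled cytosolic heat shock also holds the mitochondrial chaperonin genes Hspd1 and Hspe1.

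A direct test of the difference between lists was not made, and these counts are read beside the shares of all genes given above. Macrophage markers were lower with JSH-23 too, from 3045 to 3112 CPM in WTL and from 2432 to 2541 CPM in WTL + JSH23, and so were dendritic cell markers, from 17420 to 18460 and from 15560 to 16920 CPM. Neutrophil markers were at 61.9 to 62.9 CPM in WTL and 44.6 to 49.2 CPM in WTL + JSH23, with all 6 tested called lower, and stromal markers at 27.1 to 28.3 and 10.2 to 13.1 CPM. Their part in the changes with JSH-23 was not tested.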

How the data were processed

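RNA was measured by sequencing in 12 libraries of mouse BMDCs, 3 per group, grouped by the labels; the study describes them as biological replicates. The labels name rRNA depletion and the study's methods a stranded polyA kit. The authors aligned reads with STAR 2.6.0c to mm10 and deposited, for each library, RSEM expected counts, TPM and FPKM per gene; the deposited FPKM were not used. The GENCODE release is not given in the sources used here. Symbols and positions came from GENCODE M21 (GRCm38) by identifier without version (55154 of 55335 matched), and promoter windows from RefSeq (GRCm38.p6).

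Expected counts were rounded, filtered with filterByExpr (14357 genes kept) and tested in edgeR 4.0.16 (R 4.3.3) with TMM scaling, one mean per group, all 12 libraries in one quasi-likelihood fit with 8 residual degrees of freedom, and Benjamini-Hochberg adjustment over all genes. A gene was called at an adjusted p under 0.05, and the script was tested on simulated data. SE is the log2 fold change divided by the root of F. The CPM printed are TMM-scaled. Levels between genes are the TPM the authors deposited. Totals of 24664724 to 34837847 counts set the counting precision, and p-values measure the spread between these libraries.

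A marker gene of the B and plasma cell list is not reported here. The members and gene lists were chosen with earlier results of these data known. From each other list were named, per comparison, up to 2 genes with the largest rise and 2 with the largest fall among called genes whose larger group mean reached 5 CPM, plus each sensor gene; the text gives a selection of these. The genes most like the 10 were the protein-coding ones with the highest Pearson r. Alternatives were DESeq2 1.42.0 size factors and Wald test, upper quartile scaling, limma 3.58.1 on log2(TPM + 1) and log2(TPM + 0.1), other filters, a fit of only 2 groups, a replicate block, a 2-fold threshold and leaving out each library; limma on TMM-scaled log2(TPM + 1) was added after seeing the data.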

Additional observations from a re-analysis of the deposited data

Results flagged for a closer look

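For 6 of the 10 genes the LPS change depended on the JSH-23 state, by the test of the difference itself (edgeR, quasi-likelihood, Benjamini-Hochberg over all genes). The LPS change with JSH-23 minus that without it was -0.5115 for Creld2, -0.3800 for Hspa5, -0.2695 for Xbp1, -0.2437 for Hsp90b1, -0.1979 for Edem1 and -0.1978 for Calr on the log2 scale, with adjusted p from 4.10e-05 for Hspa5 to 0.0111 for Edem1. With TMM scaling Xbp1 was lowered by LPS in both states and Hspa5 was raised in both. Creld2 was raised without JSH-23, a call lost in unscaled TPM (0.03, adjusted p = 0.649), and its change with JSH-23 was -0.15, a call lost in DESeq2 (adjusted p = 0.104), without a filter (adjusted p = 0.0753) and in 4 of the 12 fits without 1 library. The LPS changes of Hsp90b1, Edem1 and Calr passed without JSH-23 and not with it, which other scalings altered: with JSH-23 LPS falls were called under upper quartile scaling for Edem1 (adjusted p = 0.00249) and Calr (adjusted p = 0.0154) and in unscaled TPM for Hsp90b1 (adjusted p = 0.00866). In unscaled TPM only the value of Creld2 passed (-0.38, adjusted p = 0.0106), and with TMM-scaled TPM that of Edem1 did not (-0.17, adjusted p = 0.135).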

How the results depend on the processing

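Among the scalings, fits and filters, unscaled TPM moved the counts most, with the same values for both pseudocounts. It gave 1 higher and 6 lower of the 10 genes for LPS without JSH-23, and 1 and 8 for LPS with it. For JSH-23 under LPS it gave 4 lower, and for the interaction 1 negative. A 2-fold threshold left 0 in every count, since none of the called changes of the 10 genes was that large. Leaving out 1 library gave 6 to 6 higher and 3 to 3 lower for LPS without JSH-23, 2 to 2 and 3 to 4 with it, 9 to 9 lower for JSH-23 under LPS, 1 to 1 higher and 3 to 4 lower without LPS, and 6 to 6 negative interactions. Without WTL + JSH23 replicate 3, which stood apart, the falls were 3, 3, 9, 4 and 6 in that order of comparisons. DESeq2, the other scalings and filters kept each count within 1.5 times, though not each call. For LPS without JSH-23, upper quartile scaling lost Edem1 (adjusted p = 0.215) and gained a fall of Herpud1 (adjusted p = 0.0142), and TMM-scaled TPM lost Edem1 (adjusted p = 0.14). The fall of Dnajb9 with JSH-23 in untreated cells was lost under upper quartile scaling, in DESeq2, in the TPM fits, without a filter and with only 2 groups (adjusted p = 0.068 to 0.0938).

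Signs turned as follows, where the cause was not tested beyond the scaling medians in the report. For LPS without JSH-23, TPM + 1 and TPM + 0.1 gave Dnajb9 -0.0294 and -0.0304, Hsp90b1 -0.0319 and -0.0320, Edem1 -0.2298 and -0.2317, and Calr -0.1751 and -0.1753. For LPS with JSH-23 they gave Herpud1 -0.2254 and -0.2285 and Hsp90b1 -0.1571 and -0.1575, while upper quartile scaling gave -0.0581 and -0.0266, and TMM-scaled TPM -0.0329 for Herpud1. For the interaction they gave Dnajb9 0.0405 and 0.0418 and Pdia4 0.0022 and 0.0025, and for JSH-23 under LPS Pdia4 0.0164 and 0.0170. For JSH-23 without LPS, Calr was at -0.0092 with both TPM pseudocounts, -0.0016 without a filter, -0.0033 with a mean of at least 1 CPM and -0.0053 with TMM-scaled TPM, and Edem1 at -0.0003 and -0.0023 with those filters. Leaving out 1 library gave -0.0028 to 0.066 for Herpud1 (LPS with JSH-23) and, for JSH-23 without LPS, -0.0147 to 0.0528 for Hsp90b1, -0.0131 to 0.0168 for Edem1, -0.0053 to 0.035 for Pdia4 and -0.0112 to 0.0237 for Calr.

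Of all genes, interactions that passed were 1370 positive and 1212 negative with TMM, 1000 and 1440 with DESeq2, 1150 and 1474 with DESeq2 size factors, 1400 and 362 with TPM + 1, and 583 and 768 with TMM-scaled TPM. Deviations from the group means had an r of 0.014 to 0.061 between same-numbered libraries and of -0.056 to 0.035 between others. All these values are small, and with 3 libraries per group they cannot settle whether the numbers pair cultures. With a replicate block the counts were 6 higher and 3 lower for LPS without JSH-23, 2 and 4 with it, and 6 negative interactions, as without the block. Depth did not limit the 10 genes, each with at least 499 counts.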
